A study of Mus musculus with 137 samples.

Results

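The 10 genes described here, Fbxw13, Fbxw14, Fbxw15, Fbxw16, Fbxw18, Fbxw19, Fbxw20, Fbxw21, Fbxw22 and Fbxw24, are F-box genes of a tandem cluster on mouse chromosome 9 that is active in the oocyte. They were taken by name from a fixed list, as 10 of the 36043 gene symbols to which the deposited transcript counts could be summed. The RNA came from 2-cell mouse embryos of strain B6129F1, with 1 embryo per library, and the libraries fall into 3 groups and 2 experiments. All zygotes were isolated 5 hours after fertilization and kept in KSOM medium in wet chambers with no oil. From 6 hours after fertilization the medium held 0.1% DMSO, the solvent (29 libraries labelled DMSO), or 10 µM SR1848, which inhibits NR5A2, a nuclear receptor and transcription factor (41 libraries labelled SR1848). The remaining 67 libraries are labelled SR1848 with NR5A2 overexpression (SR1848_NR5A2OE), which stands for 10 µM SR1848 together with NR5A2 mRNA at 500 ng/µl, and are called SR1848 with NR5A2 mRNA below. No group given a control mRNA was analysed here, so NR5A2 and the giving of mRNA cannot be told apart. The labels do not say which embryos share parents.

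An F-box protein is the part of an SCF ubiquitin ligase that chooses the substrate: its F-box binds SKP1, which joins it to the scaffold CUL1 and the RING protein RBX1, and a second domain binds the protein to be marked for degradation. In the Fbxw family that second domain is a propeller of WD40 repeats. The chromosome 9 genes form a branch that is greatly expanded in the mouse, and their transcripts are known mainly from oocytes, which store them for the time around fertilization when the genome is largely silent. Maternal transcripts of this kind are normally cleared while the embryonic genome is switched on at the 2-cell stage. For most of these genes no substrate is established. Fbxw15 has been reported to direct degradation of the histone acetyltransferase HBO1, and Fbxw24 has been linked to meiotic prophase in the mouse ovary.

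On GRCm38 the cluster held 15 Fbxw genes, all on the minus strand, between chr9:109139447-109790670. From the lowest coordinate upward the order was Fbxw21, Fbxw13, Fbxw20, Fbxw14, Fbxw28, Fbxw22, Fbxw16, Fbxw19, Fbxw23, Fbxw15, Fbxw24, Fbxw25, Fbxw18, Fbxw26 and Fbxw27. The 5 genes of this row outside the list are Fbxw28, Fbxw25, Fbxw26, Fbxw27 and Fbxw23, which is annotated as a transcribed pseudogene. No other protein-coding gene lay within the span of the members. Coding sequences of the members ran from 1395 to 1410 bases. Across the 45 pairs of members the coding sequences were between 79.7% (Fbxw14 with Fbxw24) and 92.7% (Fbxw14 with Fbxw22) identical.

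This likeness bears on every count below, because reads from shared stretches are divided among copies by estimation. In 9 members between 59.3% (Fbxw16) and 84.8% (Fbxw18) of the 31-base words of their transcripts occurred in no other gene. Fbxw14 was the exception, with 29.6% of its words its own and 66.9% shared with Fbxw28, whose coding sequence is 99.1% identical. The level of Fbxw14 is therefore an estimate made jointly with Fbxw28. The first 60 coding bases of 5 genes, from the GENCODE M21 transcripts, show how little separates the copies, with capitals marking bases that differ from the commonest base at that place among the members:
Fbxw14: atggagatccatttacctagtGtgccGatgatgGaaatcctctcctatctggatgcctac
Fbxw28: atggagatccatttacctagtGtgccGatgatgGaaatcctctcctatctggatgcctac
Fbxw22: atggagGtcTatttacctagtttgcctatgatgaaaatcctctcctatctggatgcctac
Fbxw15: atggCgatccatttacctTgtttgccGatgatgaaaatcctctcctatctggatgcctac
Fbxw24: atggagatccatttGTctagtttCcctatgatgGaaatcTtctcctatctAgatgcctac
The stretches of Fbxw14 and Fbxw28 were the same in all 60 bases, while those of Fbxw22, Fbxw15 and Fbxw24 carried 2, 3 and 6 differing bases.

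**Figure D1:**
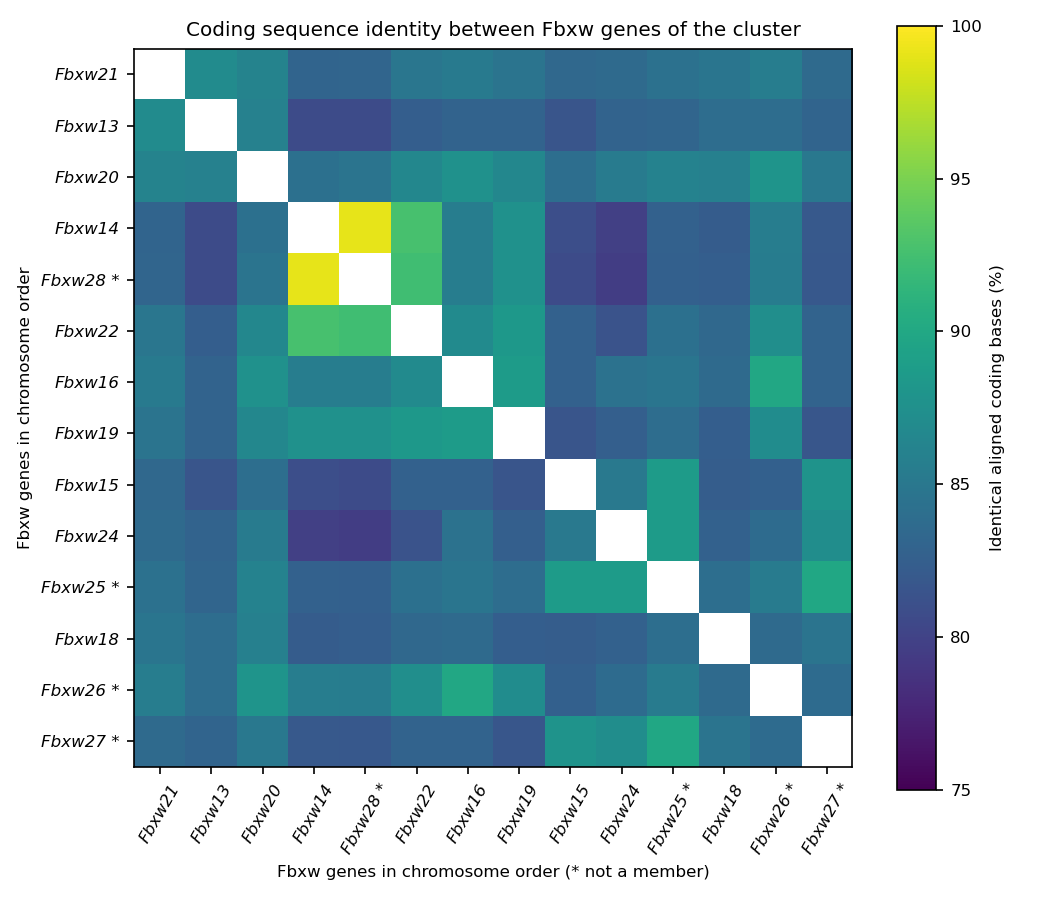
Percentage of aligned coding bases that were identical between each pair of the 14 protein-coding Fbxw genes of the cluster, in chromosome order on both axes, with the comparison of a gene with itself left white. Fbxw14 and Fbxw28, at 99.1%, are the closest pair, and pairs of members lie between 79.7% and 92.7%.

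The genes also share much of the sequence before their start sites, which is given as a description. Whether it bears on their levels was not tested. RefSeq promoter windows on GRCm38.p6 (250 bases before to 50 bases after the start) were found for 8 of the 10 members, all but Fbxw13 and Fbxw22. The 120 bases before the start of 4 of them are printed 5′ to 3′ on the minus strand, with capitals marking 2 runs that recur between members:
Fbxw24: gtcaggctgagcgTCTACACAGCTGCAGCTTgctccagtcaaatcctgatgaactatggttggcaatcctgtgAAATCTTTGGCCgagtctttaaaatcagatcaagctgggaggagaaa
Fbxw14: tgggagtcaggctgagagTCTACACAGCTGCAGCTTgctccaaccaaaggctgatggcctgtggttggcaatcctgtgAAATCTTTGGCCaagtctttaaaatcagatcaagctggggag
Fbxw21: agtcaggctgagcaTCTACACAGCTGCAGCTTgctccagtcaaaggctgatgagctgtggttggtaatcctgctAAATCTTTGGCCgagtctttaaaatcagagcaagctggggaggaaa
Fbxw16: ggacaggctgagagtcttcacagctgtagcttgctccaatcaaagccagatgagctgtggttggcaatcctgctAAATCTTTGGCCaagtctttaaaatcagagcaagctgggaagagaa
These stretches lie at chr9:109626060-109626179, chr9:109287677-109287796, chr9:109162023-109162142 and chr9:109449141-109449260. Runs and motifs were counted on both strands of the 250 bases before the start, and the 50 bases after it were not searched. The runs were picked as the longest ones held by all 8 member windows or by at least 7 of them. Their presence in the members was therefore fixed by the choice. Pairs of member windows were 71.6% (Fbxw20 with Fbxw19) to 93.2% (Fbxw21 with Fbxw15) identical over these 250 bases. The 8 windows are thus copies of one another and not independent counts. The run AAATCTTTGGCC stood in 8 of 8 member windows and in 12 of all 32851 windows (0.0365%), of which 1 was outside the cluster. The run TCTACACAGCTGCAGCTT, which holds the E-box CAGCTG, stood in 7 of 8 member windows, with Fbxw16 the exception, and in 11 of all windows (0.0335%), none of them outside the cluster. CAGCTG itself was present in 8 of 8 member windows, against 13.0% of all windows. The picked run gives a copy to 7 of these, and only the window of Fbxw20 holds no copy outside it. The letters TTTAAAA were present in 7 of 8, against 8.1% of all windows. The NR5A2 half-site letters AAGGTCA and AAGGCCA were in none of the 8 windows, against 4.1% and 5.2% of all windows, and TATAAA was in none, against 12.4%. A match is a description of the letters and not of a bound factor. The absence of a match says only that these letters are not in the 250 bases searched.

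The total per library lay between 100883 and 9317721 counts (median 4694340). In 16 libraries of experiment 2 the GFP sequence went against the labels. Outside the low libraries described below it was at most 3.23 CPM (counts scaled by library size to a common total) in SR1848 embryos and 0.765 CPM in the DMSO embryos kept, and had a median of 3448 CPM in those given NR5A2 mRNA. Numbers 1 to 8 labelled DMSO held 47.4 to 7075 CPM of GFP, and numbers 1 to 8 labelled SR1848 with NR5A2 mRNA held at most 0.452 CPM. The comparisons leave these 16 out and use the rest, called the full set below: 21 of DMSO, of which only 2 are from experiment 2, 41 of SR1848 and 59 of SR1848 with NR5A2 mRNA. Of these, 7 libraries were low, with a total under 1 in 5 of the median or detected genes under 1 in 2 of the median, and in 4 of them no member had a count. Among the low libraries GFP was at 88.5 CPM in SR1848 8 and at 146, 317 and 4.86 CPM in DMSO 13, 6 and 16, all of experiment 1, and these libraries stay in the full set. Fits are given with them (the full set) and without them (114 libraries), and levels are given over the 114. Without them DMSO kept 18 of 21 libraries, SR1848 40 of 41 and SR1848 with NR5A2 mRNA 56 of 59. Low libraries were thus a larger part of DMSO than of the other groups. Nr5a2 had a median of 168 CPM in DMSO, 52.3 CPM in SR1848 and 3240 CPM in SR1848 with NR5A2 mRNA, and 14 of the 56 libraries of that last group held under 100 CPM of GFP. The oocyte genes Gdf9, Bmp15 and Nlrp5 and the 2-cell genes Zscan4d and Zfp352 were detected in each group. Of the markers of cumulus and granulosa cells, 4 of 13 were at 0 in every DMSO embryo, and the list summed to 41.9 to 143 TPM in DMSO, 1.69 to 279 TPM in SR1848 and 3.09 to 81.0 TPM in SR1848 with NR5A2 mRNA, with Amhr2 alone at a median of 83.3 TPM in DMSO. The 7 spermatid markers summed to at most 53.1 TPM. The 8 markers of blood and epithelium had medians of 247, 123 and 666 TPM in DMSO, SR1848 and SR1848 with NR5A2 mRNA (ranges 120 to 392, 38.9 to 524 and 6.04 to 1459), led by Epcam in DMSO (178 TPM) and by the globin gene Hba-a2 with NR5A2 mRNA (401 TPM), while Hbb-bs, Hbb-bt and Ptprc had a median of 0 in each group. The part of these markers in the results was not tested. Levels are in TPM, the estimated counts per annotated transcript length scaled to the same sum in each library. In a single embryo a lower share of RNA and fewer molecules cannot be told apart.

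All 10 members were present in the control embryos, and their order by length-scaled level was led by Fbxw24. In the 18 DMSO embryos Fbxw24 had a median of 394 TPM, which was 40.9% of the summed level of the members (median over embryos). Fbxw14 followed at 144 TPM, Fbxw16 at 112 TPM, Fbxw15 at 93.3 TPM and Fbxw19 at 86.4 TPM. The other 5 were Fbxw18 at 51.9 TPM, Fbxw21 at 44.3 TPM, Fbxw20 at 33.9 TPM, Fbxw22 at 26.7 TPM and Fbxw13 at 16.5 TPM. Fbxw24 lay above Fbxw14 in 18 of 18 embryos and Fbxw19 above Fbxw18 in 17 of 18. Some neighbours in the order were not separated, as Fbxw15 exceeded Fbxw19 in 11 of 18 embryos and Fbxw21 exceeded Fbxw20 in 11 of 18. Behind these levels stood 1438 to 4425 estimated counts per embryo for Fbxw24 and 27 to 187 for Fbxw13.

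The summed level of the 10 genes was 1096 ± 329 TPM (SD, n = 18) in DMSO, 1892 ± 298 TPM (SD, n = 40) in SR1848 and 1726 ± 243 TPM (SD, n = 56) in SR1848 with NR5A2 mRNA. The lowest, median and highest embryo were at 695, 1021 and 2095 TPM in DMSO, 1368, 1845 and 2705 TPM in SR1848, and 1247, 1699 and 2317 TPM in SR1848 with NR5A2 mRNA. The groups overlapped, but all 40 SR1848 embryos and all 56 embryos with NR5A2 mRNA lay above the DMSO median. Much of the overlap came from 1 embryo, DMSO 3 of experiment 1, which stood at 2095 TPM against 1450 TPM for the next DMSO embryo and was the highest DMSO embryo for 7 of the 10 members. Its total of 5538895 counts was within the range of the group, and in the summed level of 68 maternal reference genes it was only the 6th of 18. With it set aside, 38 of 40 SR1848 embryos and 49 of 56 with NR5A2 mRNA exceeded every DMSO embryo.

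**Figure D2:**
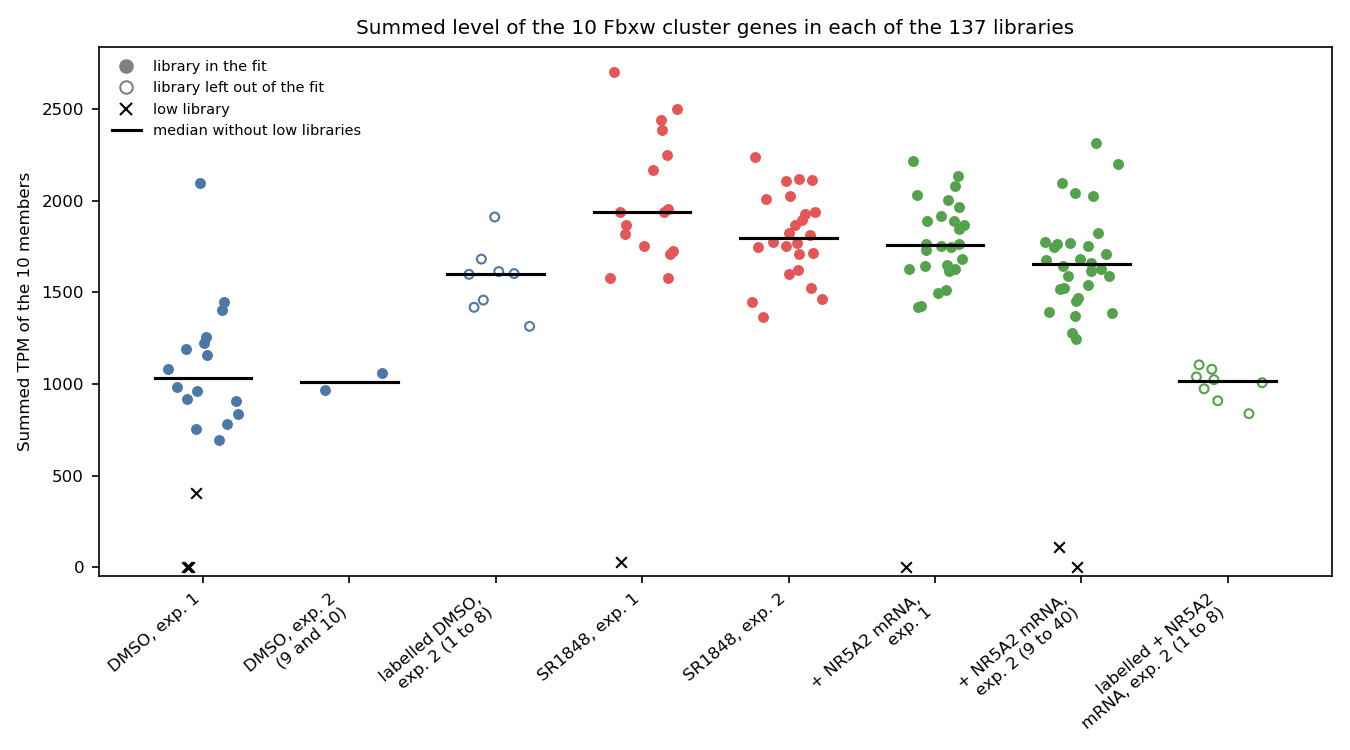
Summed TPM of the 10 members (linear vertical axis) in every library, by label and experiment; filled points entered the fit, open points are the 16 libraries left out, crosses are the 7 low libraries and bars are medians without low libraries. DMSO embryos center near 1021 TPM and SR1848 embryos near 1845 TPM, and the 8 open points labelled DMSO lie between 1315 and 1912 TPM.

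The first comparison, SR1848 against DMSO, describes the transcripts of the cluster in embryos given the inhibitor. Whether a difference came through NR5A2 was not tested. All 10 members rose relative to the other genes, between 1.59-fold (Fbxw18) and 3.59-fold (Fbxw22) with edgeR's quasi-likelihood test over the full set, whereas all 10 came out lower, at log2 -0.41 to -1.52, and 9 of 10 were called lower, when libraries were scaled to the maternal reference list. The background was high, since 41.5% of the 14883 genes tested were called higher and 32.7% lower at an adjusted p under 0.05. The median of all genes was at log2 0.35 and that of the members at 1.25. Without the low libraries the median of all genes was -0.02 and that of the members 1.01, and again 10 of 10 members were called higher, beside 37.7% of 15097 genes higher and 39.0% lower. The fold changes of the members were smaller in that fit, from log2 0.37 (Fbxw18) to 1.55 (Fbxw22). Scaling to the maternal list turned the split of all calls from 6177 higher and 4874 lower to 1238 higher and 9875 lower, and moved the median of all genes to -1.83. That list was itself mostly higher in SR1848 over the full set (55 of 67 tested genes, median log2 2.22). Genes that rose less than the list as a whole therefore come out lower when scaled to it. With relative log expression as the scaling, 6 of 10 members passed, beside 4968 of 14883 genes called higher and 5818 lower. That scaling put the median of all genes at -0.11. Fbxw13, Fbxw16, Fbxw18 and Fbxw24 did not pass (edgeR adjusted p = 0.09, 0.12, 0.46 and 0.1).

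**Figure D3:**
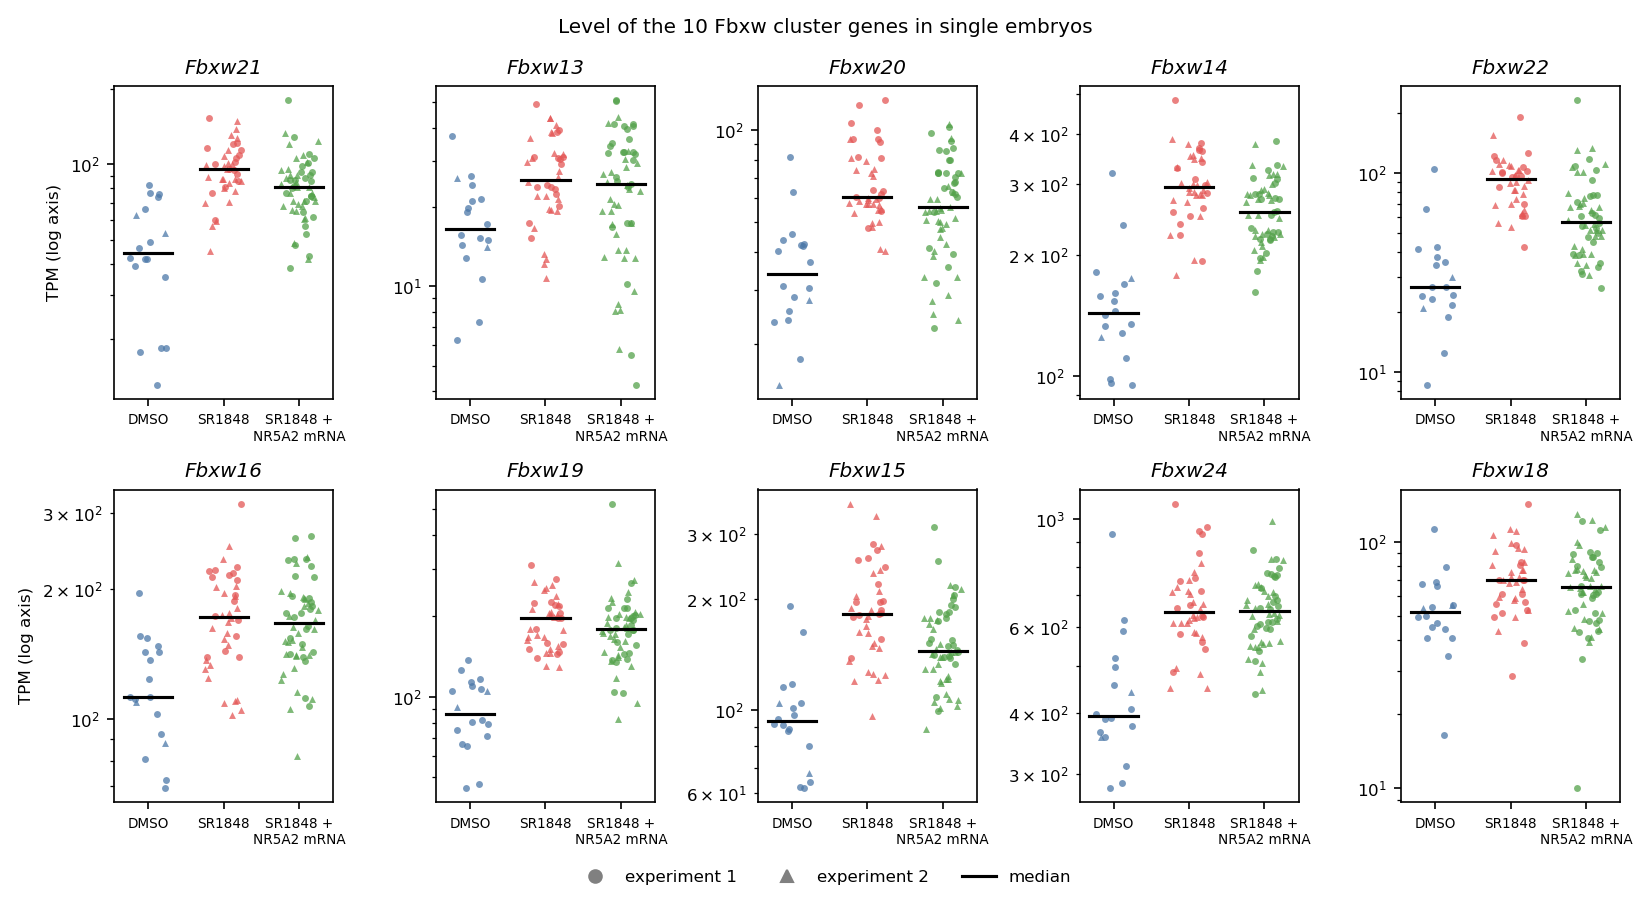
TPM (log axis, a separate scale in each panel) of each member in single embryos of the 3 groups, over the 114 libraries without the left-out and low ones; circles are experiment 1, triangles experiment 2 and bars medians. In each panel the SR1848 median is above the DMSO median, from 1.35 times for Fbxw18 to 3.49 times for Fbxw22, whereas scaling to the maternal list puts all 10 members lower in SR1848.

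Fbxw22 (ENSMUSG00000070324.6, chr9:109378400-109404296), one of the rarer members in controls, differed most. Its lowest, median and highest levels were 8.66, 26.7 and 104 TPM in DMSO and 42.6, 93.2 and 191 TPM in SR1848. All 40 SR1848 embryos exceeded the DMSO median and 10 exceeded every DMSO embryo. The log2 fold change was 1.84 ± 0.32 (SE) with an adjusted p of 1.5e-07 in edgeR, and 1.55 ± 0.20 without the low libraries. In the order of levels Fbxw22 went from 9th of the members in DMSO to 7th in SR1848.

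Fbxw19, Fbxw20 and Fbxw15 came next. Fbxw19 (ENSMUSG00000074061.4, chr9:109476654-109495875) ranged over 45.6, 86.4 and 136.7 TPM (lowest, median and highest) in DMSO and over 129, 196 and 311 TPM in SR1848. It was the member with the least overlap, as 38 of 40 SR1848 embryos lay above the highest DMSO embryo. It rose by log2 1.46 ± 0.29 (SE, edgeR adjusted p = 4.0e-06), or 1.16 ± 0.14 without the low libraries. Fbxw20 (ENSMUSG00000061701.11, chr9:109217432-109234754) ranged over 14.7, 33.9 and 82.1 TPM in DMSO and 40.3, 60.3 and 125 TPM in SR1848. It rose by log2 1.41 ± 0.28 (edgeR adjusted p = 5.6e-06), or 1.12 ± 0.15 without the low libraries. The 8 SR1848 embryos above every DMSO embryo show that the ranges overlapped more than for Fbxw19. Fbxw15 (ENSMUSG00000074060.10, chr9:109552602-109568262), the member reported to act on HBO1, ranged over 61.7, 93.3 and 192 TPM in DMSO and 96.8, 182 and 361 TPM in SR1848. Its log2 fold change was 1.40 ± 0.31 (edgeR adjusted p = 2.9e-05), or 1.10 ± 0.13 without the low libraries.

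Fbxw21 was 2.51-fold higher and Fbxw14 2.24-fold, or 2.07-fold and 1.95-fold without the low libraries, and both lost this direction with the maternal scaling. Fbxw21 (ENSMUSG00000047237.13, chr9:109139447-109162041), the first gene of the row, ranged over 13.2, 44.3 and 82.4 TPM in DMSO and 45.0, 95.5 and 153 TPM in SR1848, and 30 of 40 SR1848 embryos were above every DMSO embryo. Its log2 fold change was 1.33 ± 0.27 (SE, edgeR adjusted p = 4.9e-06). Fbxw14 (ENSMUSG00000105589.4, chr9:109270790-109287676) ranged over 95.4, 144 and 319 TPM in DMSO and 178, 295 and 484 TPM in SR1848. Its log2 fold change was 1.16 ± 0.27 (edgeR adjusted p = 8.0e-05), and that of Fbxw28, with which it shares most of its sequence, was 1.26 ± 0.27. The highest DMSO embryo for Fbxw14 was again DMSO 3 of experiment 1, and 14 of 40 SR1848 embryos were above it.

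The remaining 4 members had the smallest fold changes. Fbxw24 (ENSMUSG00000062275.7, chr9:109601116-109626057), the most abundant, ranged over 280, 394 and 932 TPM in DMSO and 451, 645 and 1077 TPM in SR1848, so that all 40 SR1848 embryos exceeded the DMSO median and 4 exceeded every DMSO embryo. It rose by log2 0.99 ± 0.30 (SE, edgeR adjusted p = 0.0022), or 0.69 ± 0.10 without the low libraries. Fbxw13 (ENSMUSG00000049314.11, chr9:109179227-109195975) ranged over 6.22, 16.5 and 37.2 TPM in DMSO and 10.8, 25.4 and 49.5 TPM in SR1848, with a log2 fold change of 0.98 ± 0.29 (edgeR adjusted p = 0.0016). Fbxw16 (ENSMUSG00000074062.5, chr9:109432316-109449140) ranged over 69.1, 112 and 196 TPM in DMSO and 102, 172 and 315 TPM in SR1848, with a log2 fold change of 0.90 ± 0.26 (edgeR adjusted p = 0.0013). Without the low libraries both genes were at 0.69, with an SE of 0.21 for Fbxw13 and 0.12 for Fbxw16. For both genes 35 of 40 SR1848 embryos were above the DMSO median, and 8 (Fbxw13) and 12 (Fbxw16) were above every DMSO embryo. Fbxw18 (ENSMUSG00000074059.3, chr9:109676734-109702700) changed least, from 16.4, 51.9 and 113 TPM to 28.5, 70.1 and 143 TPM. Its log2 fold change of 0.67 ± 0.28 passed narrowly (edgeR adjusted p = 0.027), did not pass without embryo 2 of SR1848 with NR5A2 mRNA in experiment 1 (0.49, adjusted p = 0.096), or with total counts as the scaling (0.39, adjusted p = 0.16), and was -0.16 with relative log expression and no low libraries.

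By experiment, and without the low libraries, 9 of 10 members were called higher in experiment 1, beside 36.9% of 13480 genes tested, and 8 of 10 in experiment 2, beside 19.8% of 18321 genes, where only 2 DMSO embryos remained. In those 2 embryos, DMSO 9 and DMSO 10, Fbxw24 was at 357 and 441 TPM, Fbxw19 at 91.2 and 105 TPM, and Fbxw22 at 21.0 and 29.9 TPM. All members were within the range of experiment 1 in both embryos except Fbxw20, at 14.7 TPM in DMSO 9 against a lowest level of 17.8 TPM in experiment 1. Fbxw22 differed by log2 1.57 ± 0.27 (SE) in experiment 1 and 1.89 ± 0.41 in experiment 2, and Fbxw24 by 0.79 ± 0.13 and 0.80 ± 0.22. With the low libraries kept, experiment 2 alone called 1 member higher, beside 2151 of 18650 genes called higher and 3848 lower. The median fold change of the members was then log2 0.73, and the low libraries of that experiment were both labelled SR1848 with NR5A2 mRNA.

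The second comparison, SR1848 with NR5A2 mRNA against SR1848, addresses whether NR5A2 mRNA brought the cluster back toward the control level. None of the 10 members passed in edgeR over the full set (1 of 10, Fbxw22, had an unadjusted p under 0.05, and it passed, with an adjusted p of 0.032, once embryo 2 of experiment 1 was left out), beside 21.8% of 14883 genes called higher and 12.4% lower. Their log2 fold changes ran from -0.44 (Fbxw22) to 0.02 (Fbxw19), with a median of -0.11 against 0.02 for all genes. Without the low libraries, where 29.8% of 15097 genes were called higher and 14.8% lower, Fbxw22 alone fell, by 0.37 on the log2 scale (SE 0.13, edgeR adjusted p = 0.011, against a difference of 0.01 with the maternal scaling), and DESeq2 over the full set also called Fbxw22 alone (-0.50, adjusted p = 0.027). The direction turned with the reference. The maternal list itself had a median of -0.47 over the full set, and 8 of 10 members were called higher when scaled to it. The split of all calls was then 7238 higher and 494 lower, against 3251 and 1852 before. The median of the members was 0.48 against 0.60 for all genes, and 2 of 10 members lay above the median of all genes.

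A p that misses the threshold does not show that the groups were alike, so the intervals are given. Without the low libraries the 95% interval of the ratio of embryos with NR5A2 mRNA to those with SR1848 alone was 0.971 to 1.16 for Fbxw24, 0.863 to 1.05 for Fbxw14, 0.949 to 1.19 for Fbxw16, 0.936 to 1.20 for Fbxw19 and 0.896 to 1.19 for Fbxw18. For Fbxw21 it was 0.833 to 1.09, for Fbxw20 0.801 to 1.05 and for Fbxw13 0.821 to 1.21. Fbxw15, with 0.777 to 0.987, and Fbxw22, with 0.649 to 0.917, were the members whose interval lay below 1, and Fbxw15 did not pass after adjustment (p = 0.068 in edgeR). Fbxw22 had a lowest, median and highest level of 26.6, 56.9 and 231 TPM in embryos given NR5A2 mRNA, against 42.6, 93.2 and 191 TPM in SR1848, so the medians differed while the ranges overlapped. Fbxw15 had 88.9, 145 and 312 TPM in embryos given NR5A2 mRNA, against 96.8, 182 and 361 TPM.

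For the other 8 members the ranges of embryos given NR5A2 mRNA and of SR1848 embryos overlapped. Fbxw24 had 438, 648 and 994 TPM (lowest, median and highest), Fbxw14 162, 256 and 382 TPM, and Fbxw19 82.4, 179 and 525 TPM. Fbxw16 stood at 81.9, 167 and 266 TPM, and Fbxw21 at 38.5, 81.3 and 180 TPM. The rarer Fbxw18, Fbxw20 and Fbxw13 had medians of 65.8, 56.0 and 24.4 TPM, with ranges from 10.0 to 130, from 22.5 to 105 and from 4.23 to 51.0 TPM. Several of these extremes came from 1 embryo that stood apart, embryo 2 of experiment 1, with 8346 detected genes against at least 14811 in the others of its group, 0 CPM of GFP and 29.5 CPM of Nr5a2. It held the highest level in its group for 3 members, Fbxw22 (231 TPM), Fbxw19 (525 TPM) and Fbxw15 (312 TPM), and the lowest for 4, Fbxw18 (10.0 TPM), Fbxw20 (22.5 TPM), Fbxw21 (38.5 TPM) and Fbxw24 (438 TPM). Without it the highest levels were 133 TPM for Fbxw22, 315 TPM for Fbxw19 and 254 TPM for Fbxw15, and the lowest level of Fbxw18 was 33.4 TPM. Leaving it out changed calls: over the full set Fbxw22 fell by 0.52 on the log2 scale (SE 0.20, edgeR adjusted p = 0.032), and without the low libraries Fbxw22 fell by 0.47 (SE 0.11, adjusted p = 3.3e-04) and Fbxw15 by 0.23 (SE 0.08, adjusted p = 0.015).

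Embryos with much and with little GFP overlapped in the members. In the 42 embryos with at least 100 CPM of GFP the summed level had a median of 1670 TPM (1247 to 2219), and in the 14 with less it was 1768 TPM (1280 to 2317). Fbxw15 had medians of 142 and 177 TPM in these sets, Fbxw22 of 56.9 and 62.8 TPM, and Fbxw24 of 648 and 649 TPM, with overlapping ranges. These 2 sets were defined by a measured sequence and were not tested against each other. With only the embryos of at least 100 CPM of GFP kept in that group, 0 of 10 members passed against SR1848, among 14474 genes tested. This does not show that the levels were alike.

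Whether the difference between SR1848 with NR5A2 mRNA and SR1848 differed between the experiments was tested as an interaction. It passed in 0 of 10 members, with the smallest unadjusted p, 0.12, for Fbxw13 (adjusted p = 0.55, edgeR), beside 3.60% of all genes. Fbxw13 differed by log2 0.28 ± 0.30 (SE) in experiment 1 and -0.35 ± 0.26 in experiment 2. Fbxw22 had -0.39 ± 0.32 and -0.47 ± 0.28.

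In the authors' deposited table of this same comparison, made per transcript, 6 of the 23 member transcripts with an adjusted p were under 0.05, and each carries the state DOWN, beside 10.1% of all 61895 transcripts with an adjusted p in the authors' deposited table. They belong to Fbxw22, Fbxw15, Fbxw20, Fbxw21 and Fbxw14 (2 transcripts). The authors' deposited table gives the Fbxw22 transcript ENSMUST00000080626 a log2 fold change of -0.64 with an adjusted p of 6.2e-05, and the Fbxw15 transcript ENSMUST00000056745 one of -0.39 with 7.5e-04. Of the other 4 in the authors' deposited table, 1 Fbxw14 transcript (ENSMUST00000198048) has a log2 fold change of -1.23, while those of Fbxw20, Fbxw21 and the other Fbxw14 transcript round to 0. ENSMUST00000198048 was rare, with a mean normalized count of 3.17 in that table and 0.503% of the Fbxw14 counts in SR1848 embryos. The libraries that entered that table are not named in the sources used here. Most members were carried by 1 annotated transcript, which held 99.7% of the counts of Fbxw15 and 98.4% of those of Fbxw19 in SR1848 embryos, whereas Fbxw14 was divided between 2 transcripts with 57.6% and 39.3% and Fbxw22 between 2 with 76.7% and 23.3%. The main transcript of Fbxw13 held 94.7% of its counts in DMSO and 74.1% in SR1848, where a second one held 22.2%.

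The third comparison, SR1848 with NR5A2 mRNA against DMSO, shares its DMSO embryos with the first and its NR5A2 mRNA embryos with the second. All 10 members were higher, between log2 0.64 ± 0.27 (SE, Fbxw18, edgeR adjusted p = 0.025, or 0.066 without embryo 2 of experiment 1) and 1.48 ± 0.28 (Fbxw19, adjusted p = 1.3e-06), whereas scaling to the maternal list put all 10 lower, at -0.24 to -0.93, with 7 called. Genes called higher were 43.9% of all tested and genes called lower 29.9%, and the median of all genes was 0.51. Scaling to the maternal list made 1955 calls higher and 7976 lower in place of 6541 and 4443, and relative log expression made 5206 and 5430 with 5 of 10 members called. Here too the maternal list was itself higher over the full set (median log2 1.54). In the fit without the low libraries 10 of 10 members were called higher beside 42.5% of all genes higher and 34.6% lower, from log2 0.42 ± 0.14 (Fbxw18) to 1.24 ± 0.13 (Fbxw19). Fbxw24 exceeded the DMSO median in 56 of 56 embryos given NR5A2 mRNA, Fbxw14 in 56 and Fbxw18 in 41.

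The 5 other Fbxw genes of the row were compared with the members because they lie among them. In SR1848 against DMSO all 5 were called higher over the full set, whereas scaling to the maternal list put 4 of them at -0.97 to -1.27 and Fbxw23 at 0.09. Without the low libraries that scaling gave a median of -0.61 for Fbxw17, Fbxw25, Fbxw26, Fbxw27 and Fbxw28. None passed with NR5A2 mRNA against SR1848. Fbxw23, the transcribed pseudogene between Fbxw19 and Fbxw15, was on none of the lists and was chosen after its values were seen. It ranged over 46.1, 84.6 and 291 TPM (lowest, median and highest) in DMSO, 256, 378 and 952 TPM in SR1848 and 205, 375 and 629 TPM in embryos given NR5A2 mRNA. Its log2 fold change for SR1848 against DMSO was 2.33 ± 0.29 (SE, edgeR adjusted p = 6.4e-12), against at most 1.84 among the members. Of its 31-base words 71.4% occur in no other gene. Fbxw26 and Fbxw27, at the far end of the row, differed by 1.60 ± 0.16 and 1.43 ± 0.15 without the low libraries, Fbxw28 by 0.96 ± 0.12 and Fbxw25 by 0.72 ± 0.25. Over the full set, where the low library DMSO 13 of experiment 1 held 538 TPM of Fbxw26, this gene differed by 1.11 ± 0.31. Fbxw18, the member that changed least, sits between Fbxw25 and Fbxw26. Fbxw17, a relative on another chromosome, was at a median of 2.10 TPM in DMSO and 8.78 TPM in SR1848 and rose by 2.23 ± 0.52 (edgeR adjusted p = 7.5e-05).

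**Figure D4:**
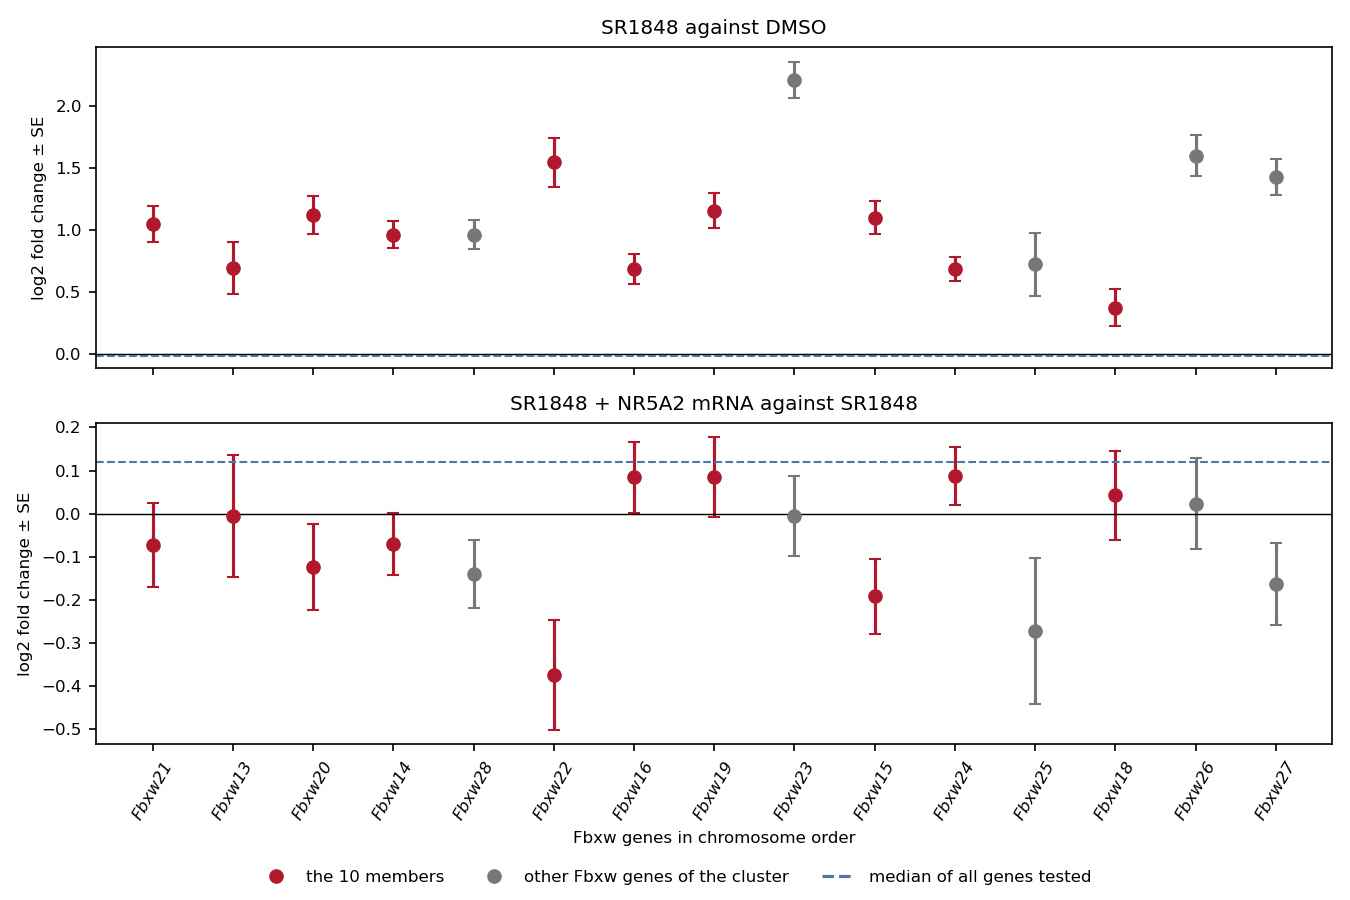
Log2 fold change (± SE, edgeR, 114 libraries) of the 15 Fbxw genes in chromosome order, for SR1848 against DMSO (top) and SR1848 with NR5A2 mRNA against SR1848 (bottom, a finer scale). Red points are members, gray points the other genes of the row, and the dashed line is the median of all genes, -0.02 and 0.12; every gene is above 0 in the top panel, whereas scaling to the maternal list puts all 10 members below 0.

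Genes flanking the row moved in both directions with SR1848. The annotation places 14 protein-coding genes outside the Fbxw family within 200 kb of the members, none inside the span, and 9 of them were tested. In SR1848 against DMSO 2 of 9 were higher and 5 lower, with a median of -0.88, against 10 of 10 members higher. The translation machinery gene Tma7 fell by 2.32 on the log2 scale (SE 0.27, edgeR adjusted p = 1.3e-13) and Uqcrc1, a subunit of respiratory complex III, fell by 3.96 (SE 0.50, adjusted p = 6.7e-12), while Shisa5 rose by 2.32 (SE 0.29, adjusted p = 6.3e-12). With NR5A2 mRNA against SR1848, 5 of 9 were higher and 0 lower, among them Tma7 by 1.82 ± 0.21 and Atrip, a partner of the DNA damage kinase ATR, by 2.18 ± 0.22 (adjusted p = 2.1e-12 and 1.1e-14). Without the low libraries these counts were 2 higher and 5 lower in the first comparison and 5 higher and 2 lower in the second. With the maternal scaling over the full set they were 0 higher and 7 lower, and 6 higher and 0 lower. No difference between the members and these neighbours was itself tested.

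Other parts of the SCF machinery moved in both directions. Of 16 tested genes on a list of SCF subunits and regulators, 9 were higher and 5 lower in SR1848 against DMSO, whereas scaling to the maternal list without the low libraries gave 0 higher and 13 lower. In the fit without the low libraries the scaffold Cul1 rose by log2 1.84 ± 0.12 (SE, edgeR adjusted p = 3.4e-27), and Nae1, a subunit of the enzyme that activates NEDD8, by 1.66 ± 0.14, while the RING protein gene Rnf7 fell by 5.39 (SE 0.42). The adaptor Skp1a had a median of 658 TPM in DMSO and 2504 TPM in SR1848. In embryos given NR5A2 mRNA against SR1848, 2 of the 16 were higher and 7 lower in the full set, or 8 higher and 3 lower with the maternal scaling and no low libraries. Nae1 fell by 0.90 on the log2 scale and Rbx1 by 0.70 (edgeR adjusted p = 4.0e-16 and 1.7e-07, without the low libraries). Cul1 had medians of 1735 TPM in SR1848 and 1618 TPM in embryos given NR5A2 mRNA.

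Other F-box genes moved in both directions. Of 8 tested WD40 F-box genes outside the clade 3 were higher and 4 lower in SR1848 against DMSO, against 0 and 6 with the maternal scaling and no low libraries. Fbxw4 rose by log2 2.24 ± 0.15 and Fbxw5 by 1.71 ± 0.20, while Fbxw2 fell by 2.02 and Btrc, which marks β-catenin for degradation, fell by 1.40 (edgeR, without the low libraries). With NR5A2 mRNA against SR1848, Fbxw2 rose by 1.43 ± 0.13 and Btrc fell by 0.79. Of 8 F-box genes known from oocytes and the cell cycle 2 were higher and 5 lower in SR1848 against DMSO, against 0 and 8 with the maternal scaling and no low libraries. Fbxo15 fell by 3.57 (SE 0.18), and the cell cycle genes Ccnf, Skp2 and Fbxo5 (an inhibitor of the anaphase-promoting complex) fell by 3.51, 2.25 and 2.58 (edgeR, without the low libraries). Fbxo5 rose by 1.47 ± 0.28 when NR5A2 mRNA was added to SR1848.

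The wider pool of maternal transcripts is given for comparison. Of 67 tested maternal reference genes, a list without the members, 55 were higher and 7 lower in SR1848 against DMSO, with a median log2 fold change of 2.22 against 1.25 for the members and 0.35 for all genes, and scaled to itself, without the low libraries, the list had 26 higher and 30 lower. With NR5A2 mRNA against SR1848, 1 of the 67 was higher and 29 lower, with a median of -0.47 against -0.11 for the members and 0.02 for all genes, or 3 higher and 41 lower without the low libraries, and 20 higher and 20 lower when scaled to itself without them. The 4 genes of smallest p with SR1848, in edgeR without the low libraries, were Tacc3, a spindle protein, which fell by 3.39 (SE 0.17), Wee2, an oocyte kinase that holds meiotic arrest, which rose by 3.43 ± 0.17, Trim60, which rose by 3.12 ± 0.17, and Nobox, a transcription factor of the growing oocyte, which rose by 3.92 ± 0.25. In the second comparison Nobox fell by 1.58 (SE 0.14) and Nlrp4a, an oocyte NLRP gene, fell by 1.04 (SE 0.11) in the same fit. The 28 tested 2-cell reference genes, transcripts of the newly active genome, had 10 higher and 9 lower in the first comparison and 17 higher and 0 lower in the second, or 3 and 16, and 25 and 0, with the maternal scaling and no low libraries. Those of smallest p with SR1848 were Ubtfl1, Tdpoz2, Zscan5b and Obox6, which fell by 4.85, 7.84, 6.24 and 5.74 on the log2 scale (edgeR, without the low libraries). In the second comparison Ubtfl1 rose by 2.12 ± 0.28 and Obox6 by 2.76 ± 0.50. No test compared one list with another.

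**Figure D5:**
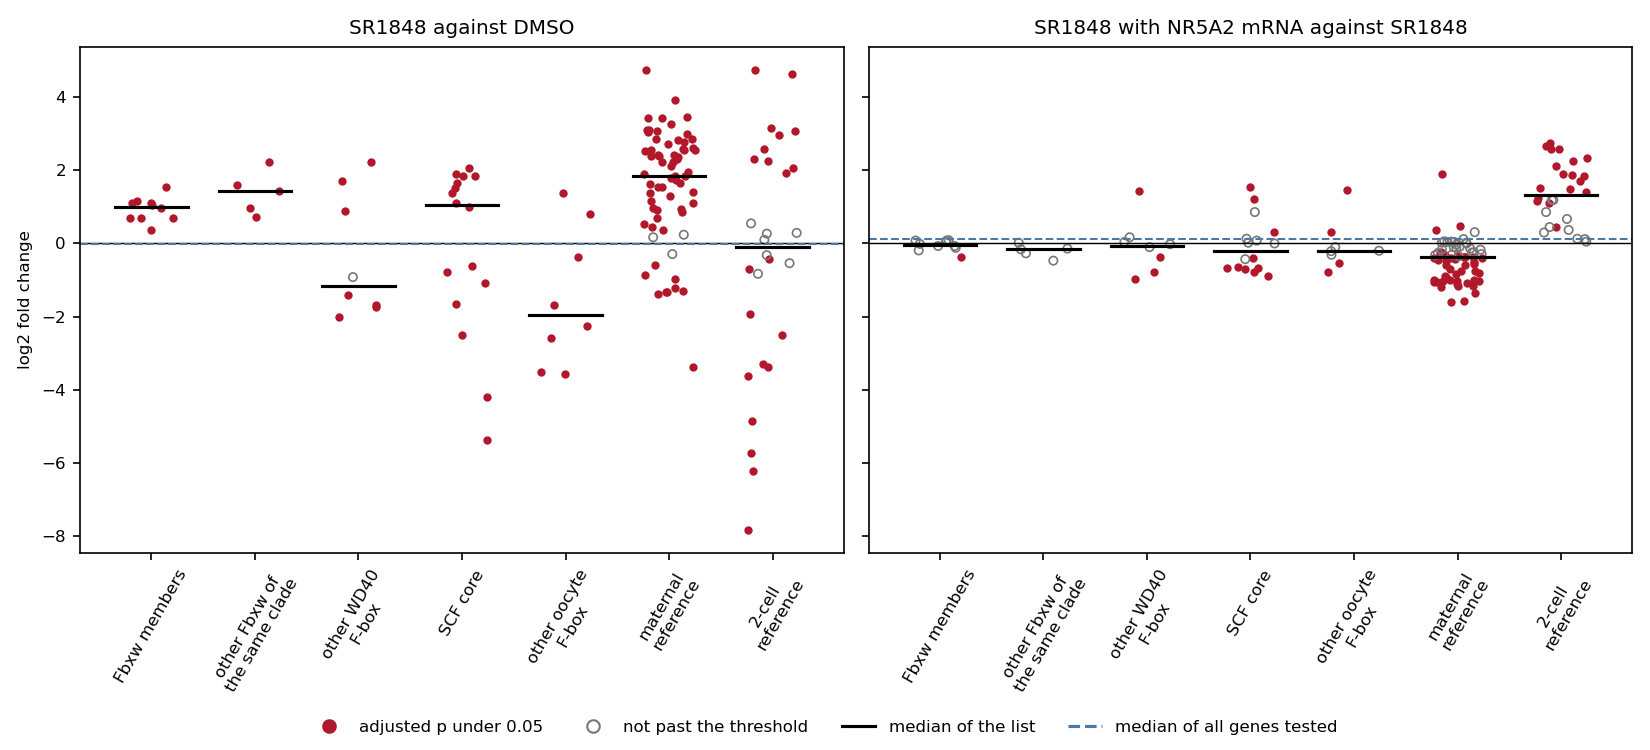
Log2 fold change (edgeR, 114 libraries) of single genes on 7 lists, for SR1848 against DMSO (left) and SR1848 with NR5A2 mRNA against SR1848 (right); filled points passed an adjusted p of 0.05, open points did not, bars are list medians and the dashed line is the median of all genes. The 10 members lie between 0.37 and 1.55 on the left and between -0.37 and 0.09 on the right, whereas scaling to the maternal list puts all 10 below 0 on the left.

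Members also varied together from embryo to embryo within a group, but only weakly once the low libraries were left out. After the mean of each group and experiment was removed, the correlation (Pearson's r of log2 CPM) between pairs of members had a median of 0.89 over the full set, from 0.81 to 0.97. That set holds the 7 low libraries, in several of which no member had a count. Over the 114 libraries without the low ones the median was 0.27, from -0.01 (Fbxw19 with Fbxw18) to 0.72 (Fbxw14 with Fbxw24), and 44 of 45 pairs were above 0. All members of a pair are read from the same library and share sequence, so these values are descriptions. By the same measure over the full set, with the low libraries kept, the 5 genes most like the mean of the members were Ergic2, Xlr3a, Mbd3l2, Cript and Trim23. Their r lay between 0.95 and 0.96. Over the 114 libraries they were Pecr (r = 0.60), Oas1d (0.54), C87499 (0.50), Obox2 (0.47) and Nlrp4a (0.46), out of 6967 genes compared.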

How the data were processed

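RNA of single embryos was measured with SmartSeq2 and oligo-dT priming, per the labels' protocols. Per the submitters' processing notes, bcl2fastq, Trim Galore 0.6.2, kallisto 0.46.1, R 3.5.1 and DESeq2 1.32.0 were used, with the builds mm10 and hg19. The authors deposited estimated counts (expected counts, kallisto) for 119358 transcript entries, with 26.3% of the values not whole (tolerance 1e-9). Per the file headers, the authors' deposited table holds for each transcript a p-value before and after adjustment, a log2 fold change and a mean normalized signal. Each column was given to a sample through the group, number and experiment in its name. For 2 of the 3 groups the column prefix is not the label, and it was matched by the set of replicate numbers and experiments under it.

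Transcripts were paired with symbols through the authors' table (117523 entries) and GENCODE M21 on GRCm38 (51 more). No symbol was found for 1779 entries (0.656% of counts), and 5 (B1 and B2 repeats, GFP and an Nr5a2 sequence), with 0.158%, were kept apart. Counts were summed by symbol and rounded. The protocol keeps no strand. Genes were tested with edgeR 4.0.16 in R 4.3.3 (quasi-likelihood test with TMM scaling after filterByExpr; terms for experiment and group; 1 spread over all groups), with Benjamini-Hochberg adjustment over all genes at 0.05. The script was tested on simulated data. TPM was computed from annotated exon lengths and log2 CPM with a prior count of 1. Intervals of 95% are normal, from the SE of the log2 fold change.

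The members, the lists and the 16 libraries left out were chosen with earlier results of these data known, so their patterns are not independent evidence. Named genes are all members, the Fbxw relatives, up to 4 genes of smallest p on each other list and among neighbours within 200 kb, and the 5 genes most like the members' mean with at least 3 log2 CPM. Each library is 1 embryo. Embryos may share parents, so p-values measure the spread between embryos. Totals of 100883 to 9317721 counts set the precision, and the protocol has no molecular identifiers. Alternatives were the libraries used, the scaling, DESeq2 1.42.0, the filter, the pairing of transcripts, a GFP minimum of 100 CPM and the replicate number as a block.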

Additional observations from a re-analysis of the deposited data

Results flagged for a closer look

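Among the 16 libraries that the comparisons leave out, each member had a higher median in the 8 labelled DMSO than in the other 8. GFP differed in the same direction, and the medians of the libraries in the fit went the other way. In the 8 labelled DMSO, each embryo exceeded the median of the 18 DMSO embryos in the fit for 6 members: Fbxw24 (median 617 TPM), Fbxw14 (239 TPM), Fbxw15 (151 TPM), Fbxw19 (149 TPM), Fbxw18 (87.5 TPM) and Fbxw21 (80.5 TPM). The summed level of these 8 was 1315 to 1912 TPM, against 838 to 1105 TPM in the 8 labelled SR1848 with NR5A2 mRNA, so the 2 sets did not overlap in the sum. For each member but Fbxw24 the ranges did overlap, as for Fbxw22 at 25.4 to 69.1 and 23.3 to 58.6 TPM. In each set 7 of 8 embryos exceeded the median of the 18 DMSO embryos for Fbxw22. Whether labels or libraries were exchanged was not tested. Among the 8 labelled SR1848 with NR5A2 mRNA, 1 embryo stood apart for Fbxw18, at 21.4 TPM against a median of 55.3 TPM, by a criterion at the 95% level of Dixon's test, which about 1 group in 20 meets by chance.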

How the results depend on the processing

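For SR1848 against DMSO, 10 of 10 members were called. Counts within 1.5 times of that came with all libraries as labelled (8), experiment 1 alone (8), no low libraries (10), total counts (9), DESeq2 (10), no filter (9), the authors' pairing alone (10) and without the embryo given NR5A2 mRNA that stood apart (9, or 10 without the low libraries). The count was 1 in experiment 2 alone and 6 with relative log expression, with or without the low libraries. Scaled to the maternal list it turned to 9 lower, or 10 lower without the low libraries. Of all genes tested, 4801 of 14499 were called higher with all libraries as labelled and 4938 of 13605 in experiment 1 alone. The numbers were 5445 of 14883 with total counts, 6550 of 31117 with DESeq2 and 8494 of 31117 with no filter. Over the full set they were 4968 of 14883 with relative log expression, and 2151 of 18650 in experiment 2 alone. For NR5A2 mRNA against SR1848, 0 of 10 members were called. The count was 1 with all libraries as labelled, no low libraries, total counts or DESeq2, and 1 with relative log expression and no low libraries (Fbxw24, higher). It was 1 without the embryo that stood apart (Fbxw22), and 2 without it and the low libraries (Fbxw22 and Fbxw15). It was 2 with no low libraries and total counts or experiment 2 alone, and 8 or 9 (higher) scaled to the maternal list with or without the low libraries. Of all genes, 4285 of 14499 were called higher and 1878 lower with all libraries as labelled. With total counts these were 3553 and 1904 of 14883, and with DESeq2 5097 and 2626 of 31117. For NR5A2 mRNA against DMSO, 10 of 10 members were called. The count was 9 without the embryo that stood apart, where Fbxw18 was at 0.51 (adjusted p = 0.066 in edgeR). It was 0 in experiment 2 alone, 5 with relative log expression, and 7 or 10 lower scaled to the maternal list. In experiment 2 alone 2097 of 18650 genes were called higher and 3197 lower, and with relative log expression 5206 and 5430 of 14883. The difference between experiments passed in 0 members with all libraries as labelled, no low libraries, relative log expression or GFP of at least 100 CPM. The causes were not tested, but experiment 2 alone holds 2 DMSO embryos, and the maternal list was itself higher in SR1848 than in DMSO.

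Values that changed sign were as follows, on the log2 scale. SR1848 against DMSO, scaled to the maternal list, gave Fbxw21 -0.92, Fbxw13 -1.25, Fbxw20 -0.78, Fbxw14 -1.17, Fbxw22 -0.41, Fbxw16 -1.40, Fbxw19 -0.77, Fbxw15 -0.86, Fbxw24 -1.23 and Fbxw18 -1.52. Without the low libraries the same scaling gave -0.97, -1.34, -0.87, -1.06, -0.50, -1.32, -0.88, -0.96, -1.32 and -1.61 in that order, and relative log expression gave Fbxw18 -0.16. NR5A2 mRNA against DMSO, scaled to the maternal list, gave -0.49, -0.70, -0.37, -0.74, -0.40, -0.79, -0.24, -0.52, -0.62 and -0.93 in that order, and without the low libraries -0.54, -0.80, -0.47, -0.62, -0.49, -0.70, -0.35, -0.61, -0.71 and -1.04. Experiment 2 alone gave Fbxw13 -0.10, and relative log expression without the low libraries gave Fbxw18 -0.02.

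NR5A2 mRNA against SR1848 lay near 0, and members crossed it in small steps. Scaled to the maternal list, Fbxw21 was at 0.43, Fbxw13 0.55, Fbxw20 0.40, Fbxw14 0.43, Fbxw22 0.02, Fbxw15 0.34 and Fbxw18 0.59, and without the low libraries at 0.43, 0.54, 0.40, 0.44, 0.01, 0.35 and 0.58. Relative log expression without the low libraries gave Fbxw21 0.04, Fbxw13 0.11, Fbxw14 0.04 and Fbxw18 0.15. Experiment 1 alone gave Fbxw13 0.33 and Fbxw18 0.12, or 0.30 and 0.09 without the low libraries. Fbxw18 was also at 0.04 without the low libraries, 0.01 with total counts, 0.03 with both, and 0.09 with GFP of at least 100 CPM. Fbxw16, Fbxw19 and Fbxw24 were at -0.04, -0.04 and -0.04 with all libraries as labelled, -0.03, -0.01 and -0.02 with relative log expression, and -0.07, -0.05 and -0.07 with DESeq2. Fbxw19 was at -0.07 in experiment 2 alone, -0.01 there without the low libraries, and -0.01 with total counts. Without the embryo that stood apart Fbxw19 was at -0.04 and Fbxw18 at 0.02, or 0.06 for Fbxw18 without the low libraries too.

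Replicate numbers do not pair the embryos: same-numbered libraries of different groups correlated with a median r of 0.018 (73 pairs, 8 over 0.1), against 0.009 for 2102 other pairs. With the replicate block 9, 0 and 10 members were called in the 3 comparisons, and Fbxw13 and Fbxw18 were at 0.04 and 0.10 for NR5A2 mRNA against SR1848. The settings that combine the low libraries with a scaling or an experiment, or leave out the embryo that stood apart, were chosen after seeing the data. Depth limits Fbxw13 most, with 27 to 187 estimated counts per DMSO embryo.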
